A study of Mus musculus with 15 samples.

Results

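The genes described here encode the proteins of the cytosolic ribosome, the particle that makes protein in the cell. They were chosen by symbol: protein-coding genes named Rpl or Rps with a number and at most a letter a or x, together with Rplp0, Rplp1, Rplp2, Rpsa and Rps3a1. The rule found 77 genes among the 55385 of the count table, 46 of the large subunit and 31 of the small subunit. Among cytosolic ribosomal proteins with other symbols, Fau and Rack1 are outside the rule and are described separately.

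RNA came from bone marrow-derived macrophages (BMDMs) of 6-week-old female BALB/c mice. The 2 STAT5fl/fl replicates (numbered 112 and 113) carried floxed Stat5 alleles without Cre, and the 3 STAT5cKO replicates (114, 115 and 116) carried the same floxed alleles with Csf1r-iCre, a Cre driven by the promoter of the M-CSF receptor gene that is not limited to macrophages. For 2 h, BMDMs received serum-free DMEM alone, rmGM-CSF at 20 ng/mL (recombinant mouse GM-CSF, a cytokine that signals through STAT5) or 4T1 CM (medium conditioned by 4T1 cells, a mouse mammary tumor line), which gave 15 libraries in 6 groups. The authors removed a further STAT5fl/fl replicate at quality control. A group thus holds 2 or 3 libraries, which the study calls biological replicates. The labels do not say whether a number stands for 1 mouse, and p-values measure the spread between these libraries.

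The depth was between 16016736 and 22883108 counts per library. Stat5a had 637 to 918 counts in the STAT5fl/fl libraries and 0 to 3 in the STAT5cKO libraries, and Stat5b had 977 to 1654 and 0 to 4, so every library matched its genotype label. The summed level of 8 macrophage markers was between 24626 and 46593 normalized CPM (counts relative to the library total, scaled by relative log expression factors), while Cd3g and Trac of T cells, Ly6g of neutrophils, Hba-a1 of red cells and Krt14 of epithelium were at 0 in every library. The markers of neutrophils, T cells, B cells, dendritic cells, red cells, fibroblasts and mammary epithelium summed to no more than 4.33 normalized CPM per list in any library. A few of them moved with the treatments or differed between the genotypes at these low levels. Cdh1 of epithelium was called higher with 4T1 CM in both genotypes and with rmGM-CSF in STAT5fl/fl (edgeR, adjusted p under 0.01). With rmGM-CSF it was called lower in STAT5cKO than in STAT5fl/fl. The 5 epithelial markers, of which only Cdh1 passed the low-count filter, were summed. In STAT5fl/fl the sum was 0 to 0.136 normalized CPM with DMEM, 1.18 to 1.43 with rmGM-CSF and 3.16 to 4.33 with 4T1 CM. In STAT5cKO it was 0 to 0.0435, 0 to 0.0490 and 1.23 to 2.17. S100a8 of neutrophils was called higher with 4T1 CM in STAT5cKO, and Zbtb46 of dendritic cells with rmGM-CSF in both genotypes. Their part in the results was not tested. A bulk library does not tell a change in RNA per cell from a change in the number of cells of a type.

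Ribosomal proteins are made in equal numbers, since each ribosome holds a copy of nearly every one of them, and their mRNAs are among the most abundant in a growing cell. Most of these mRNAs begin with a C followed by a run of pyrimidines, the terminal oligopyrimidine tract, which puts their translation under the control of the kinase mTOR and the RNA-binding protein LARP1. Because this control acts largely on translation, mRNA levels of these genes usually move little and together. In macrophages, activation by cytokines is known to raise MYC, a transcription factor that promotes the production of ribosomes.

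The tract is shown for 4 of the genes that rose with 4T1 CM, read in the sense direction over 15 bases before and 15 bases from the RefSeq start (GRCm38.p6), with the tract in capitals. They are Rplp2 of the ribosomal stalk at chr7:141447636-141447665 on the plus strand, Rps6 at chr4:86857353-86857382 on the minus strand, Rpl28 at chr7:4792950-4792979 on the plus strand and Rps18 at chr17:33955651-33955680 on the minus strand. Rpl13, at chr8:123102335-123102364 on the plus strand, rose with 4T1 CM as well and is shown because no tract stood within 5 bases of its annotated start. A run of pyrimidines does stand further before that start in the printed letters, and where its mRNA begins was not tested.
Rplp2: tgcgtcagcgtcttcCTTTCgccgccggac
Rps6: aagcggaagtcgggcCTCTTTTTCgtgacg
Rpl28: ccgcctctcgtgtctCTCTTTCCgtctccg
Rps18: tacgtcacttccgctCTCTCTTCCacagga
Rpl13: ttccctttcgcctgattttgattggcgttt

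RefSeq promoter windows of 250 bases before and 50 bases after the start were matched for 57 of the 77 genes (67 windows, as some genes have several). A C followed by at least 4 pyrimidines on the sense strand within 5 bases of the start was present in 43.3% of these windows and in 18.3% of all 32851 windows. On either strand, TTCCGG, the core of the ETS factor motif, was in 49.3% of the windows against 14.9% of all, GGGCGG (the GC box) in 61.2% against 35.7%, and GATGGC (part of the YY1 motif, which can span a start codon) in 25.4% against 14.1%. TATAAA (the TATA box) was in 8.96% against 13.6%. TTCNNNGAA, the STAT5 motif, was found in 4.48% of the windows, those of Rpl35, Rpl4 and Rplp0, against 8.30% of all, and a TTCCGG at its left end shares its letters. These matches describe the letters of the windows, with several windows of a gene overlapping, and the annotated starts were not checked against the ends of the mRNAs.

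The genes were spread over 19 chromosomes, with 14 on chromosome 7 and 4 on the X chromosome. Levels between genes were compared per length, as TPM (counts per exon length, scaled to the same sum in each library). The median gene had a mean of 260.5 TPM over the 15 libraries, and 62 of the 77 lay within 4-fold of that median. Rplp1, an acidic protein of the stalk that recruits elongation factors, had the highest level with 2693 ± 245 TPM (SD, n = 15 libraries), followed by Rps15 with 1490 ± 198 TPM and Rps29 with 1446 ± 170 TPM. These SDs span all 6 groups. By group means Rps15 lay above Rps29 in STAT5fl/fl (1585 against 1413 TPM with DMEM) and below it in STAT5cKO (1402 against 1417 TPM with DMEM) under each treatment. Their difference was not tested. The order depends on the length used: by the length of the principal transcript Rplp1 was still first (2620 TPM), but Rps29 (2500) and Rps9 (2317) followed and Rps15 came sixth (1826), with a median of 589 TPM. At the other end, Rpl21 had 2.16 ± 0.455 TPM, Rpl29 had 4.66 ± 0.566 TPM and Rps10 had 8.67 ± 1.60 TPM. The order of the genes was nearly the same in every library, with rank correlations of 0.984 to 0.999 over the 105 pairs of libraries.

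The counting bears on such levels. It left out fragments that align to several places, and ribosomal protein genes have many processed pseudogenes, intronless copies inserted elsewhere in the genome. A median of 48.4% of the 50-base stretches of a gene's principal transcript also occurred in transcripts of other annotated genes, and this share was over 50% in 34 genes. Rpl21 and Rpl29 each shared such stretches with 81 annotated pseudogenes, and Rpl21 had 29 to 58 counts per library. Rpl7a shared them with 119, the most of the 77 genes, and had a mean of 202 TPM. Across the 77 genes the Spearman correlation of TPM with the number of such pseudogenes was -0.41, and with the share of shared stretches it was -0.12, as a description over genes counted in the same libraries. Rps10 shared stretches with 2 pseudogenes, but it also overlaps the readthrough gene RPS10-NUDT3 on the same strand, and fragments that fall in both genes were not counted. The part of the counting in the order of levels was not tested, and a fold change between libraries compares the same countable stretches of a gene.

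**Figure D1:**
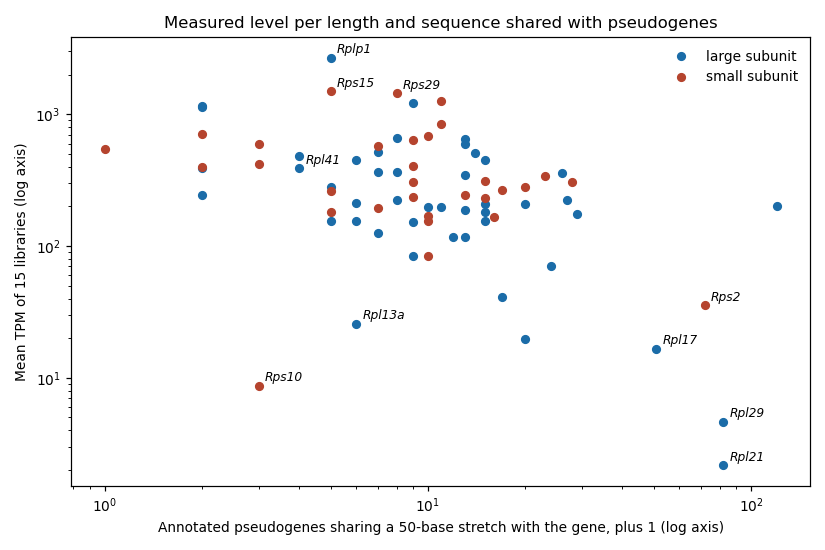
Mean TPM of each of the 77 genes over 15 libraries (vertical, log axis) against the number of annotated pseudogenes that share a 50-base stretch with its principal transcript, plus 1 (horizontal, log axis). Rpl21 and Rpl29, with 81 pseudogenes each, have the lowest levels, while Rps10 and Rpl13a are low with few. Rpl7a, with the most (119), has 202 TPM.

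As a share of all gene counts, which needs no scaling between libraries, the 77 genes took 1.28% to 1.79% of a library. The share was 1.43% and 1.56% in STAT5fl/fl replicates 112 and 113 with DMEM, 1.41% and 1.48% with rmGM-CSF, and 1.61% and 1.79% with 4T1 CM. In STAT5cKO replicates 114, 115 and 116 it was 1.30%, 1.36% and 1.43% with DMEM, 1.34%, 1.28% and 1.29% with rmGM-CSF, and 1.40%, 1.42% and 1.30% with 4T1 CM. Both STAT5fl/fl libraries with 4T1 CM lay above all others, and with DMEM the genotypes overlapped, since replicate 116 lay just above replicate 112, both at 1.43% when rounded. The protein genes of mitochondrial DNA took 1.71% to 2.22% of the STAT5fl/fl libraries and 1.42% to 1.92% of the STAT5cKO libraries. The summed macrophage markers were at 24626 to 29832 normalized CPM in STAT5fl/fl and 31111 to 46593 in STAT5cKO libraries, without overlap between the genotypes. This sum does not stand for the 8 markers as a set. With DMEM, rmGM-CSF and 4T1 CM their median log2 fold changes in STAT5cKO against STAT5fl/fl were 0.10, -0.05 and -0.07. Lyz2 was called higher under each treatment and Cd14 with DMEM and 4T1 CM, and 0 were lower (edgeR, adjusted p under 0.01). Of all tested genes 0.923%, 3.78% and 4.01% were called higher. The part of either measure in the differences between the genotypes was not tested.

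**Figure D2:**
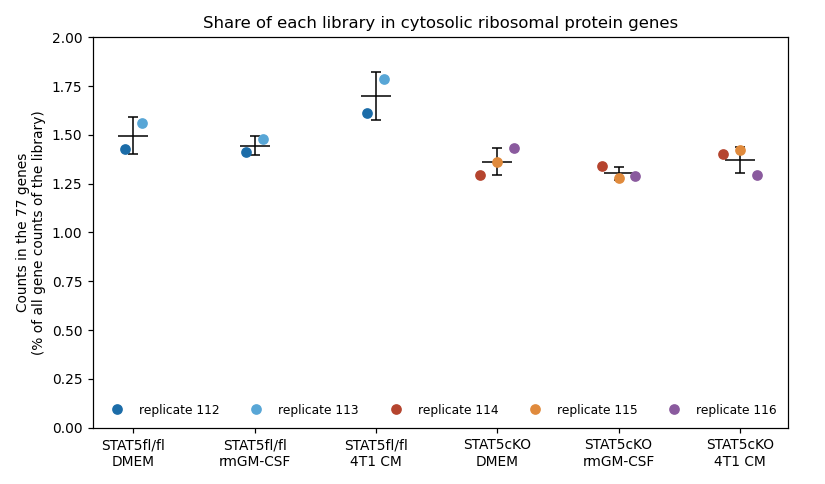
Percent of all gene counts that fell on the 77 genes in each library (points, colored by replicate number), with the mean and SD of each group (bars). The STAT5fl/fl libraries with 4T1 CM, at 1.61% and 1.79%, are the highest, and the STAT5cKO libraries stay between 1.28% and 1.43%.

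Normalized to the other genes, the 77 genes varied little within a group, with a median coefficient of variation between 3.64% and 8.10% over the libraries of a group. The values were highest in the STAT5fl/fl libraries with 4T1 CM for 71 of the 77 genes, and 63 of these maxima were in the library of replicate 113. The lowest value fell in a STAT5cKO library with DMEM for 54 genes, 46 of them in replicate 114. Thus the 4T1 CM library of replicate 113 stood apart from its group, and the counts over the 77 genes that rest on it, and the genes named from them, are given without it as well.

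**Figure D3:**
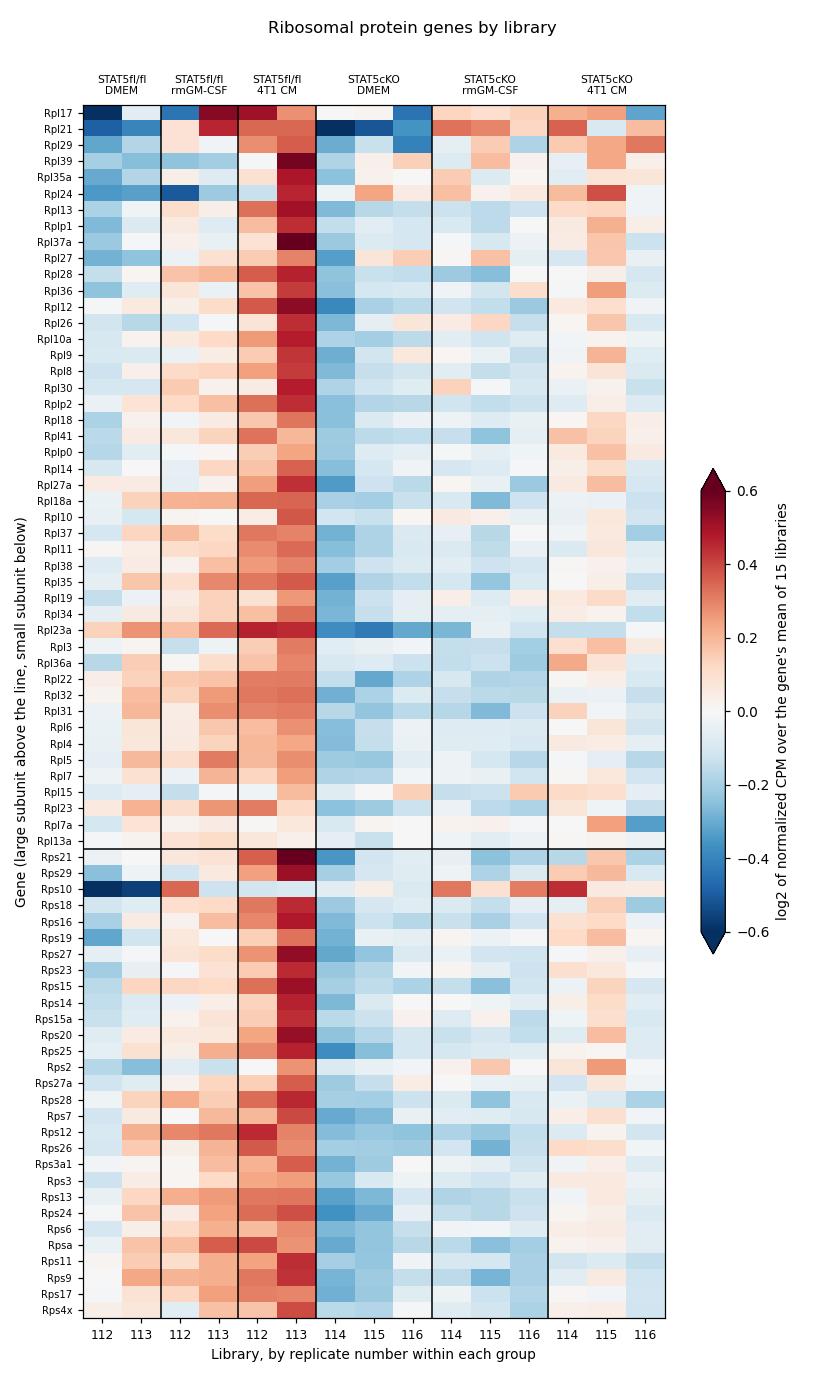
Normalized CPM of 75 of the genes (rows, large subunit above the line) in each library (columns, by group and replicate number), as the log2 ratio to the mean of that gene over 15 libraries. Red is above and blue is below the mean, and the columns of STAT5fl/fl with 4T1 CM hold the highest value of 71 of the 77 genes in all.

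The first question was whether 4T1 CM changed these mRNAs in macrophages with STAT5. In STAT5fl/fl BMDMs, 43 of the 77 genes rose and 0 fell compared with DMEM (edgeR quasi-likelihood F test, Benjamini-Hochberg adjusted p under 0.01), while 19.1% of all 13005 tested genes were called higher and 18.0% lower. The fitted log2 fold change was above 0 in all 77 genes, with a median of 0.32 (25.1% higher) and an interquartile range of 0.26 to 0.44, beside a median of 0.01 over all tested genes. Of the small subunit genes 22 of 31 rose (median log2 fold change 0.35) and of the large subunit genes 21 of 46 (median 0.30). Without the 4T1 CM library of replicate 113, with the remaining library assumed to vary as the other groups do, 11 of the 43 were still called, 4 of the small and 7 of the large subunit, and the median was 0.25. With the library totals alone as scaling the median was 0.19 and 13 genes were called, while the median of all genes moved to -0.12. The summed macrophage markers rose along with these genes, from 24626 and 25024 to 28831 and 29832 normalized CPM. Of the 8 markers 4 were called higher (Cd14, Fcgr1, Itgam and Mertk) and 0 lower, and their part was not tested.

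Rpl13, a large subunit protein, had the smallest adjusted p. Its gene lies at chr8:123102350-123105244 on the plus strand. It measured 137 and 154 normalized CPM with DMEM and 197 and 222 with 4T1 CM in replicates 112 and 113, so the groups did not overlap (log2 fold change 0.52 ± 0.077 SE, adjusted p = 2.41e-05, edgeR). Lack of overlap was a condition for naming genes by adjusted p, and 37.9% of all tested genes were higher with 4T1 CM without overlap. For Rpl10a, on the side where spent tRNA leaves the large subunit, the values were 141 and 153 with DMEM and 180 and 209 with 4T1 CM (log2 fold change 0.40 ± 0.070 SE, edgeR adjusted p = 0.000133). Both genes were also called without the 4T1 CM library of replicate 113.

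The ribosomal stalk is a mobile arm of the large subunit that binds translation factors. All 3 stalk genes rose: Rplp1 by 0.49 on the log2 scale (326 and 370 to 446 and 533 normalized CPM), Rplp2 by 0.37 (228 and 248 to 294 and 319) and Rplp0 by 0.31 (285 and 308 to 356 and 379). Rpl5 and Rpl11 carry a small ribosomal RNA into the large subunit and, when unassembled, bind the p53 inhibitor MDM2. Rpl11 rose by 0.29 on the log2 scale, from 158 and 161 to 191 and 199 normalized CPM. Rpl5 was not called, with 199 and 236 against 236 and 250 normalized CPM, a difference of 0.16 ± 0.091 (log2, SE). Rps6, the substrate of the S6 kinases downstream of mTOR, rose by 0.27 (134 and 147 to 163 and 175 normalized CPM), and Rps27a, whose protein is made fused to ubiquitin, rose by 0.35 (123 and 127 to 147 and 171). Without the 4T1 CM library of replicate 113, Rplp1 (0.36) and Rplp2 (0.31) were still called, and Rplp0 (0.26), Rpl11 (0.26), Rps6 (0.22) and Rps27a (0.24) were not.

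Among the other genes listed by role, Rps14 and Rps19, small subunit proteins whose loss causes failure of red cell production in people, rose by 0.42 and 0.45 on the log2 scale. Rps3, at the mRNA entry of the small subunit, rose by 0.28, Rpl3, near the peptidyl transferase center, by 0.24, and the short basic proteins of Rpl39 and Rpl41 by 0.54 and 0.32. The value of Rpl39 rests on 1 library, since it measured 54.9 and 52.8 normalized CPM with DMEM and 62.9 and 93.9 with 4T1 CM in replicates 112 and 113. When the 4T1 CM library of replicate 113 was left out, Rpl41 was still called (0.38 on the log2 scale), while Rps14 (0.25), Rps19 (0.36), Rps3 (0.27), Rpl3 (0.16) and Rpl39 (0.22) were not. Rpl13a, which is known to leave the ribosome in interferon-treated monocytes, stayed at 15.8 and 16.1 normalized CPM with DMEM and 16.6 and 16.2 with 4T1 CM (log2 difference 0.04 ± 0.086 SE). Its level is low among the 77 genes (rank 72 by mean TPM), and it overlaps another gene, Gm45713, on its strand. Rps2, Rpsa, Rpl4, Rpl10, Rpl22 and Rps4x had positive fold changes of 0.20 to 0.35 on the log2 scale with adjusted p-values of 0.0121 to 0.0442 (edgeR) and were not called.

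In STAT5cKO BMDMs, 12 of the 77 genes rose with 4T1 CM and 0 fell (edgeR, adjusted p under 0.01), beside 19.0% of all tested genes called higher and 18.2% lower, so their share was below that of all genes. The median log2 fold change of the 77 was 0.17 (12.3% higher), with 76 above 0. The 3 with the smallest adjusted p were Rpl12 (125, 143 and 146 normalized CPM with DMEM, 170, 175 and 160 with 4T1 CM), Rpl41 (114, 119 and 120 against 150, 145 and 136) and Rpl13 (130, 139 and 142 against 169, 171 and 154). Their log2 fold changes were 0.29 ± 0.066, 0.29 ± 0.066 and 0.26 ± 0.063 (SE). Their groups did not overlap, as the naming rule required, and 27.7% of all tested genes were higher without overlap. Rps6, Rplp0, Rpl22 and Rpsa were also among the 12, with log2 fold changes of 0.20 to 0.23. Between libraries of the same number, the median ratio of 4T1 CM to DMEM over the 77 genes was 0.26 and 0.23 on the log2 scale for numbers 114 and 115 but 0.01 for 116, and 0.32 and 0.35 for 112 and 113 in STAT5fl/fl. Without replicate 114 or without replicate 115, 0 of the 77 genes were called (edgeR, adjusted p under 0.01), and with the library totals alone as scaling the median was 0.02 and 0 were called. The summed macrophage markers rose along with these genes here too, from 31111 to 36815 normalized CPM with DMEM to 36822 to 46593 with 4T1 CM, without overlap. Of the 8 markers 3 were called higher (Cd14, Fcgr1 and Itgam) and 0 lower, and their part was not tested.

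rmGM-CSF alone left nearly all of these mRNAs without a call. Compared with DMEM, 1 of 77 genes rose in STAT5fl/fl BMDMs (Rps10) and 1 in STAT5cKO BMDMs (Rpl21), and 0 fell in either, although 16.0% and 13.4% of all tested genes were called higher (edgeR, adjusted p under 0.01). At an unadjusted p under 0.05 there were 15 genes in STAT5fl/fl and 6 in STAT5cKO. The median log2 fold change of the 77 was 0.12 and 0.07, but with the library totals alone as scaling it turned to -0.05 in both genotypes, where the median of all tested genes moved to -0.17 and -0.12. The direction for rmGM-CSF therefore depended on the scaling, and relative to the median of all genes it was upward under either. Rps10 measured 3.82 and 3.92 normalized CPM with DMEM and 7.35 and 5.31 with rmGM-CSF in STAT5fl/fl (84 to 118 counts, log2 fold change 0.70 ± 0.184 SE, edgeR adjusted p = 0.00566). Rpl21 went from 1.33, 1.48 and 1.65 to 2.65, 2.59 and 2.30 in STAT5cKO (log2 fold change 0.76 ± 0.195 SE, edgeR adjusted p = 0.00595). Both are among the 3 genes with the lowest levels, and neither call was stable. The call of Rpl21 was lost when any 1 of the 5 replicate numbers was left out (adjusted p = 0.0117 to 0.0744, edgeR), with DESeq2 and without the low-count filter, and that of Rps10 when 112, 113 or 116 was left out (up to 0.239). Both calls were also lost with the library totals alone and when only the libraries compared were fitted.

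Set against rmGM-CSF, 4T1 CM gave higher levels of 12 of the 77 genes in STAT5fl/fl (14.0% of all tested genes called higher, 17.0% lower) and of 3 in STAT5cKO (16.6% higher, 17.5% lower), and 0 were lower (edgeR, adjusted p under 0.01). The median log2 fold changes were 0.21 and 0.09. Rpl12 was at 167 and 176 normalized CPM with rmGM-CSF and at 210 and 237 with 4T1 CM in STAT5fl/fl (log2 fold change 0.38 ± 0.081 SE), and Rpl13 and Rpl3 followed with 0.35 and 0.32. In STAT5cKO the 3 genes were Rpl3 (189, 189 and 181 against 224, 237 and 216 normalized CPM), Rpl41 and Rps26. Without the 4T1 CM library of replicate 113, 0 of the 77 genes were called in STAT5fl/fl (edgeR), with a median of 0.13. In STAT5cKO 0 genes were called without replicate 115 (edgeR), with a median of 0.05, and 1 without replicate 114. The comparisons of treatments within a genotype share libraries, and their calls are not separate evidence.

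**Figure D4:**
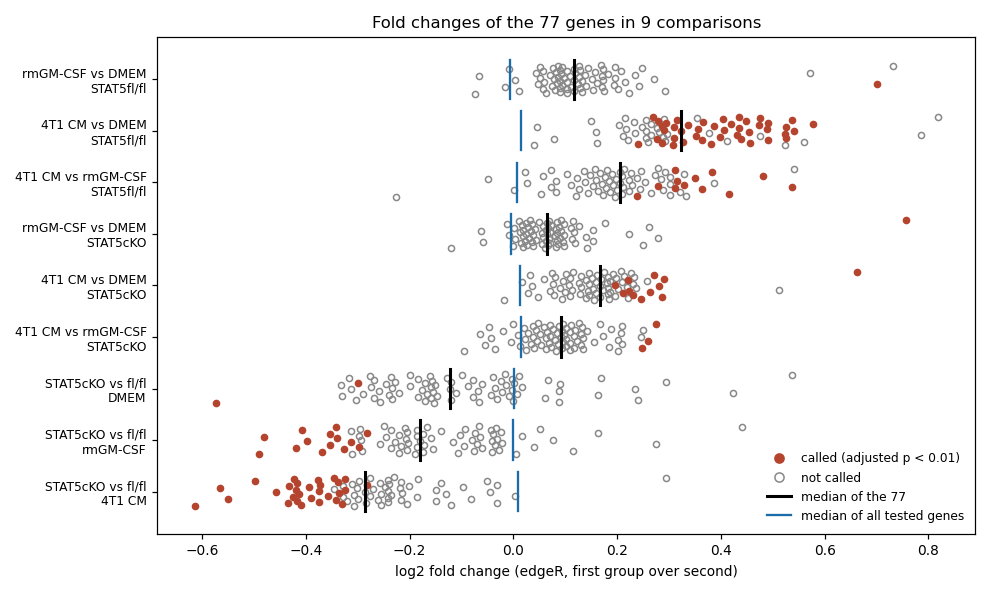
log2 fold changes of the 77 genes (points) in 9 comparisons (rows), with filled points for genes called at an adjusted p under 0.01. Black bars mark the median of the 77 and blue bars the median of all tested genes, and the black bars lie at 0.32 for 4T1 CM against DMEM in STAT5fl/fl and at -0.29 for STAT5cKO against STAT5fl/fl under 4T1 CM. For rmGM-CSF against DMEM the medians of 0.12 and 0.07 turn to -0.05 with the library totals as scaling.

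The second question was how these mRNAs differed between the genotypes. With 4T1 CM, 29 of the 77 genes were lower in STAT5cKO than in STAT5fl/fl BMDMs and 0 were higher, beside 3.43% of all tested genes called lower and 4.01% called higher (edgeR, adjusted p under 0.01). The median log2 fold change was -0.29 (fell by 18.0%), with 75 genes below 0 and a median of 0.01 over all genes. Of the small subunit genes 15 of 31 were lower (median -0.32) and of the large subunit genes 14 of 46 (median -0.25). The direction stayed under every scaling, with 30 genes called with the library totals alone. The count rested on replicate 113: without its 4T1 CM library 6 of the 29 were called, 3 of each subunit, with a median of -0.21, and without all its libraries 7 were. Without the 4T1 CM library of replicate 116, 17 were called and the median was -0.24. When the libraries of these 2 groups alone were fitted, 3 genes were called.

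Rps28, a small protein near the mRNA exit channel, measured 149 and 161 normalized CPM in STAT5fl/fl and 115, 111 and 103 in STAT5cKO with 4T1 CM, without overlap (log2 fold change -0.50 ± 0.069 SE, edgeR adjusted p = 0.000108). Its gene lies at chr17:33819027-33824562 on the minus strand. Rplp2 of the stalk was at 294 and 319 against 222, 241 and 222 (-0.43 ± 0.061, edgeR adjusted p = 0.00015). Genes named by adjusted p had to show no overlap, and 18.6% of all tested genes were lower in STAT5cKO without overlap. Rps28 was called under every alternative run at an adjusted p of 0.01, as was Rpl23a, whose values are given below. Among the genes listed by role, Rpl11, Rpl22 and Rpsa were also lower, by -0.34, -0.32 and -0.34 on the log2 scale. These calls were lost without the 4T1 CM library of replicate 113 (adjusted p = 0.0237, 0.0191 and 0.0128, edgeR), while Rplp2 was still called. Rplp0 (-0.10), Rpl3 (-0.12), Rps19 (-0.13), Rpl13a (-0.05) and Rps2 (-0.03) were not called, with standard errors of 0.062 to 0.098.

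With rmGM-CSF, 14 of the 77 genes were lower in STAT5cKO and 0 higher, beside 6.16% of all tested genes called lower and 3.78% higher (edgeR, adjusted p under 0.01), and the median log2 fold change was -0.18 (fell by 11.7%). Rpsa, the laminin-binding protein of the small subunit, had 322 and 366 normalized CPM in STAT5fl/fl and 254, 239 and 247 in STAT5cKO (-0.48 ± 0.074, edgeR adjusted p = 0.000178). Rps12 had 245 and 250 against 176, 171 and 181 (-0.49 ± 0.076), and Rps13 had 178 and 182 against 135, 136 and 139 (-0.40 ± 0.069). The groups did not overlap in any of the 3, which was a condition for naming them. Of all tested genes, 24.7% were lower in STAT5cKO without overlap. Without replicate 113 the count was 3, and with the library totals alone it was 8. Of the 14 genes, 13 were also among the 29 under 4T1 CM.

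With DMEM, 2 of the 77 genes were lower and 0 higher, beside 1.43% and 0.923% of all tested genes (edgeR, adjusted p under 0.01). The median log2 fold change was -0.12, and without replicate 113 it was -0.04 with 0 genes called. The 2 genes, Rpl23a and Rpl22, were also called lower under the other treatments. Rpl23a, which binds chaperones at the exit tunnel, measured 47.1 and 51.6 normalized CPM in STAT5fl/fl and 33.1, 31.9 and 34.6 in STAT5cKO with DMEM (log2 fold change -0.57 ± 0.081, edgeR adjusted p = 0.000544). It measured 48.6 and 54.1 against 35.4, 41.5 and 39.3 with rmGM-CSF and 58.8 and 58.4 against 38.7, 38.7 and 42.6 with 4T1 CM, so the genotypes did not overlap under any treatment. The naming rule required this with DMEM, where 20.5% of all tested genes were lower without overlap. The transcript of Rpl23a shares stretches with 28 annotated pseudogenes. Rpl22, an RNA-binding protein that the cell can do without and that restrains its paralog Rpl22l1, was at 135 and 145 against 120, 107 and 116 normalized CPM with DMEM (-0.30 ± 0.062, edgeR adjusted p = 0.00835). Its call with DMEM was lost when any 1 of the 5 replicate numbers was left out (adjusted p = 0.0137 to 0.171, edgeR). Rps10 and Rpl24 had the largest positive values, 0.54 ± 0.167 and 0.42 ± 0.149, and were not called.

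**Figure D5:**
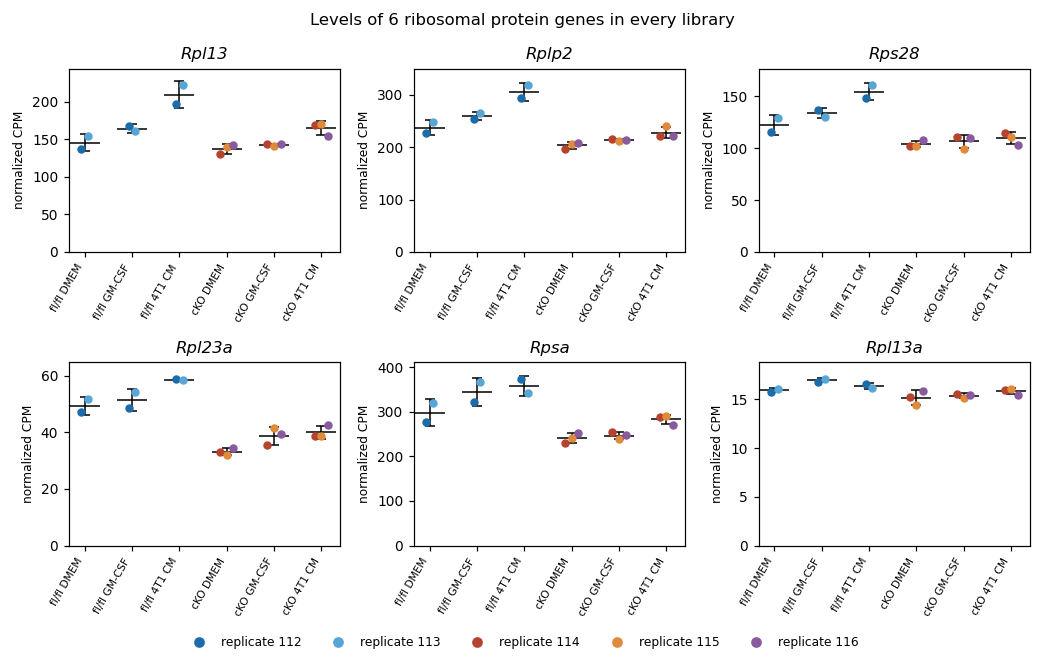
Normalized CPM of 6 genes (panels) in each library (points, colored by replicate number), with the mean and SD of each group (bars). In each treatment the STAT5cKO values of Rpl23a, Rplp2 and Rps28 lie below the STAT5fl/fl values, the STAT5fl/fl values of Rpl13 separate by treatment, and Rpl13a stays between 14.4 and 17.1.

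Whether the effect of a treatment differed between the genotypes was tested directly. For 4T1 CM against DMEM 0 of the 77 genes passed by edgeR and 0 by DESeq2 (1.31% of all tested genes by edgeR), with 18 genes at an unadjusted p under 0.05 and a median difference of -0.16 on the log2 scale (STAT5cKO minus STAT5fl/fl), where 74 genes were below 0. Without a filter on low counts 2 genes were called, and without the 4T1 CM library of replicate 113 the median difference was -0.10. Rps18, whose start is shown above, had a difference of -0.38 ± 0.115 (SE, edgeR adjusted p = 0.0959). For rmGM-CSF against DMEM 0 were called by edgeR and DESeq2 (3.16% of all tested genes) with 1 gene at an unadjusted p under 0.05, and for 4T1 CM against rmGM-CSF 0 (1.43%) with 6. The larger number of calls for 4T1 CM in STAT5fl/fl than in STAT5cKO is therefore not by itself a tested difference.

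The other ribosomal proteins and their paralogs were few. Fau was called higher with 4T1 CM in STAT5fl/fl (log2 fold change 0.32 ± 0.082), but not without the 4T1 CM library of replicate 113. Rack1 was not called in any comparison, and under 4T1 CM its log2 difference (STAT5cKO minus STAT5fl/fl) was -0.27 ± 0.076 SE. Of 9 paralogs 6 passed the low-count filter. Rpl7l1, a nucleolar relative of Rpl7, rose in both genotypes under either treatment (0.26 to 0.33 on the log2 scale), Rps27l and Rps27rt rose with 4T1 CM in STAT5fl/fl, and Rps27rt was lower in STAT5cKO under each treatment (-0.36, -0.37 and -0.51). Not all of the paralog calls for 4T1 CM against DMEM in STAT5fl/fl stayed without the 4T1 CM library of replicate 113. The median of the 6 was then 0.30, against 0.31 with it. Mitochondrial ribosomal proteins, which make the separate ribosome of the mitochondrion, showed 15 of 77 tested genes higher and 3 lower with 4T1 CM in STAT5fl/fl (median 0.13), a share of higher calls close to the 19.1% of all tested genes (18.0% were lower). Fewer of them were called without the 4T1 CM library of replicate 113, with a median of 0.15. Between the genotypes under 4T1 CM 0 were higher and 2 lower (median -0.05), beside 4.01% and 3.43% of all tested genes.

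Ribosome production also needs nucleolar and assembly factors. Of 25 such genes, 12 rose and 2 fell with rmGM-CSF in STAT5fl/fl (median 0.28) and 12 rose and 0 fell in STAT5cKO (median 0.26). Of all tested genes 16.0% and 13.4% were called higher in these comparisons. With 4T1 CM 10 rose and 6 fell in STAT5fl/fl, and 7 rose and 7 fell in STAT5cKO, beside 19.1% and 19.0% of all tested genes called higher and 18.0% and 18.2% lower. Rrs1, a factor of large subunit assembly, rose in STAT5fl/fl by 1.16 on the log2 scale with rmGM-CSF and by 0.77 with 4T1 CM, Nop58, a core protein of small nucleolar particles, by 1.04 and 0.87, and Polr1a, the largest subunit of RNA polymerase I, fell by 0.94 with 4T1 CM. Between the genotypes 0 were higher, and Fbl, the methylase of ribosomal RNA, and Heatr1 were lower under both rmGM-CSF and 4T1 CM, beside 6.16% and 3.43% of all tested genes. Of 8 host genes of small nucleolar RNAs that share the pyrimidine start, 5 rose with rmGM-CSF in STAT5fl/fl and 3 in STAT5cKO, among them Snhg1 by 0.95 and 0.83.

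Among 21 other mRNAs known to start with a pyrimidine tract, 4 rose and 2 fell with 4T1 CM in STAT5fl/fl (median 0.12). In STAT5cKO 5 rose and 2 fell with 4T1 CM (19.0% of all tested genes higher, 18.2% lower), and 3 rose and 1 fell with rmGM-CSF in STAT5fl/fl (16.0% higher, 12.7% lower). The 4 of 21 with 4T1 CM in STAT5fl/fl lie at the share of all tested genes (19.1% higher, 18.0% lower), beside 43 of the 77 ribosomal protein genes. Between the genotypes 0 were higher, and 4, 3 and 4 were lower with DMEM, rmGM-CSF and 4T1 CM. Of all tested genes 1.43%, 6.16% and 3.43% were called lower and 0.923%, 3.78% and 4.01% higher in these comparisons. Eef1a1, the elongation factor that delivers aminoacyl-tRNA, was lower by -0.61, -0.71 and -0.79 on the log2 scale, and Tpt1 by -0.29, -0.32 and -0.43. Of 12 genes of translation control, 3 rose and 4 fell with 4T1 CM in STAT5fl/fl. Myc rose in STAT5fl/fl by 2.98 with rmGM-CSF and 3.76 with 4T1 CM and in STAT5cKO by 2.61 and 3.80, Eif4e, the cap-binding protein, by 0.94 and 1.03 in STAT5fl/fl, and Eif4ebp2, an inhibitor of Eif4e, fell by 0.70 and 0.84. Larp1, the protein that binds the pyrimidine start, rose in STAT5fl/fl by 0.78 with rmGM-CSF and by 0.29 with 4T1 CM.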

How the data were processed

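Total RNA of 15 BMDM libraries was sequenced with a stranded kit. The authors trimmed the reads with Trimmomatic 0.33, aligned them to GRCm38 with HISAT2 2.1.0 and counted fragments with featureCounts 1.6.2 on the strand of the gene, for pairs with both ends mapped and a mapping quality of at least 10, without multi-mapping or multiply assigned fragments. The deposited values are raw counts per Ensembl gene beside the summed exon length. A further treatment named in the header was not analysed here.

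Counts were analysed with edgeR 4.0.16 in R 4.3.3. The 13005 genes that exceeded 1 CPM in 2 or more libraries, among them all 77 ribosomal protein genes, were scaled by relative log expression and fitted with 6 groups, and quasi-likelihood F tests were adjusted by Benjamini-Hochberg over all tested genes of a comparison, with a threshold of 0.01. Alternatives were TMM factors, library totals alone, scaling without the 77 genes, filterByExpr, no filter, the likelihood ratio test, DESeq2 1.42.0, limma 3.58.1 voom with the replicate number as a random effect, the replicate number as a block, the libraries compared alone, and leaving out each replicate number. Leaving out single libraries and the length of the principal transcript were further alternatives, chosen after the data were seen.

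The genes, lists and tests were chosen with earlier results of these data known. Genes were named by rule: the 3 called genes with the smallest adjusted p per comparison and direction whose groups did not overlap, the 3 highest and 3 lowest by TPM, and a list of genes by role. Rpl24, Rpl13 at its start site, Rpl28 and Rps18 were shown after their values were seen, as were the genes named from the other lists. Gene spans matched GENCODE M21 for all 77, and promoter windows came from RefSeq. Some named genes are not reported here.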

Additional observations from a re-analysis of the deposited data

How the results depend on the processing

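The number of ribosomal protein genes called moved more than the fold changes did. Of 201 recomputed counts of called genes 134 stayed within 1.5 times the reported count. Of 144 recomputed median fold changes 133 moved by less than the spread between libraries, as did all 18 recomputed differences in the share of counts. No gene named in a comparison changed direction under any alternative at which it was refitted. With 2 libraries in one arm, the counts rest on few libraries, and the causes of the changes below were not tested.

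In the order rmGM-CSF against DMEM, 4T1 CM against DMEM and 4T1 CM against rmGM-CSF, an adjusted p of 0.05 as threshold called 7, 68 and 32 genes in STAT5fl/fl and 3, 33 and 10 in STAT5cKO, and 12, 28 and 46 between the genotypes with DMEM, rmGM-CSF and 4T1 CM. With the library totals alone as scaling, rmGM-CSF against DMEM called 1 gene lower in STAT5fl/fl and 1 lower in STAT5cKO, turning the direction, with medians of -0.0453 and -0.0548. 4T1 CM against DMEM then called 13 genes in STAT5fl/fl and 0 in STAT5cKO, with medians of 0.189 and 0.0178, and the genotypes differed in 1 gene with DMEM and 8 with rmGM-CSF. Without a filter on low counts, 20 genes were called for 4T1 CM against rmGM-CSF in STAT5fl/fl, 0 for rmGM-CSF in STAT5cKO, 10 (9 lower, 1 higher) and 22 (21 lower, 1 higher) between the genotypes with DMEM and rmGM-CSF, and 2 and 1 for the interaction of genotype with 4T1 CM against DMEM and against rmGM-CSF. Fitting only the libraries compared called 2 (rmGM-CSF) and 6 (4T1 CM against rmGM-CSF) in STAT5fl/fl, 0 (rmGM-CSF) and 4 (4T1 CM) in STAT5cKO, and 1, 25 (24 lower, 1 higher) and 3 between the genotypes. DESeq2 called 0 for rmGM-CSF and 5 for 4T1 CM against rmGM-CSF in STAT5cKO and 9 between the genotypes with DMEM, where the likelihood ratio test called 7.

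Libraries with the same number were not taken as paired, since the labels do not say that they share a mouse and 4 of 15 correlations of their deviations from the group means were under 0.1 (0.05 to 0.21 over all genes). In STAT5cKO a library correlated best with its own number, among the 3 libraries of another treatment, in 16 of 18 comparisons. Libraries of the same number were thus more alike than others there. With the replicate number as a block, 3 genes were called for rmGM-CSF and 24 for 4T1 CM against rmGM-CSF in STAT5fl/fl, and 0 and 7 in STAT5cKO. For 4T1 CM against DMEM it called 59 and 15. Rpl21 and Rpl22 in STAT5cKO lost their calls under the block, and no other named gene did.

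Leaving out a replicate number or 1 of the 2 single libraries gave 0 to 1, 11 to 47 and 0 to 15 genes in STAT5fl/fl, 0 to 1, 0 to 13 and 0 to 6 in STAT5cKO, and 0 to 2, 3 to 16 and 6 to 24 between the genotypes, in the same order. The median log2 fold changes that moved by more than the spread between libraries ranged over 0.13 to 0.22 for 4T1 CM against rmGM-CSF in STAT5fl/fl, 0.12 to 0.25 for 4T1 CM against DMEM in STAT5cKO, -0.19 to -0.0425 and -0.36 to -0.21 between the genotypes with DMEM and 4T1 CM, and -0.16 to -0.0429 for the interaction with 4T1 CM against rmGM-CSF.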

Other observations

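The table also lists 297 pseudogenes of the 77 genes, named by the parent symbol with a -ps suffix, of which 57 passed the low-count filter. They took 0.0744% to 0.104% of the counts of a library. With 4T1 CM against DMEM, 14 of the 57 rose and 0 fell in STAT5fl/fl (median log2 fold change 0.39) and 2 rose and 0 fell in STAT5cKO (median 0.15). Of all tested genes 19.1% and 19.0% were called higher and 18.0% and 18.2% lower in these comparisons. Without the 4T1 CM library of replicate 113, 2 of 56 were called in STAT5fl/fl. With rmGM-CSF 0 were called in either genotype (edgeR). In STAT5cKO against STAT5fl/fl 0, 1 and 4 were lower with DMEM, rmGM-CSF and 4T1 CM, beside 1.43%, 6.16% and 3.43% of all tested genes. The calls between the genotypes with 4T1 CM rested on the 4T1 CM library of replicate 113. Their median log2 fold change was -0.25 with that library and -0.18 without it. Reads of a pseudogene and of its parent gene cannot be told apart where their letters agree, so these counts are uncertain.

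Among the 25 nucleolar and assembly genes, 4T1 CM against rmGM-CSF gave 1 gene higher and 8 lower in STAT5fl/fl, and 2 higher and 15 lower in STAT5cKO (median log2 fold change -0.29). Of all tested genes 14.0% were called higher and 17.0% lower in STAT5fl/fl, and 16.6% higher and 17.5% lower in STAT5cKO. In the same comparison 12 and 3 of the 77 ribosomal protein genes were higher and 0 lower. The calls of both lists in STAT5fl/fl rested largely on the 4T1 CM library of replicate 113. Without it the median of the 25 in STAT5fl/fl was -0.15, against -0.17 with it. The medians of the large and small subunit genes were then 0.14 and 0.13. Heatr1, a nucleolar factor of RNA polymerase I transcription, was lower in STAT5cKO by -0.98 on the log2 scale with rmGM-CSF and -0.46 with 4T1 CM, and stood at 0.17 ± 0.070 (SE) with DMEM, where it was not called.

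Rpl17 had the largest spread within a group of the 77 genes, with a coefficient of variation of 46.3% in the STAT5fl/fl libraries with rmGM-CSF, and its transcript shares 50-base stretches with 50 annotated pseudogenes. Rpl39, on the X chromosome, measured 62.9 and 93.9 normalized CPM in replicates 112 and 113 with 4T1 CM and 52.8 to 74.1 in the other 13 libraries.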
